A study of Mus musculus with 4 samples.

Results

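The mitotic spindle and kinetochore genes described here are 39 genes, of the 32285 that the count matrices name, whose products condense, attach, hold and separate chromosomes and divide the cell. They were given as a list of names, and all 39 were found in the 4 matrices. Their unique molecular identifiers (UMIs, each counting one captured RNA molecule) were followed across granulosa, theca-stromal, endothelial and immune cells of the mouse ovary, in cells that carried UMIs of other cell-cycle genes. Ovaries came from 8-week-old female mice in estrus on a C57BL/6J background, of 2 genotypes with 2 single-cell libraries each. Both genotypes carried LoxP sites around a part of Fosl2, which codes for an AP-1 transcription factor. Fosl2F/F mice (Fosl2flox/flox) had no Cre and served as controls, and Fosl2cKO mice (Cyp19a1-Cre; Fosl2flox/flox) carried a Cre driven by the promoter of the aromatase gene, which in the ovary is active in granulosa cells (GCs). The other lineages therefore come from the same mice but were not the target of the Cre. All mice were from one litter, and with 2 libraries per genotype p-values measure only the spread between these libraries. In granulosa-like cells, Fosl2 stood at 161 and 167 UMIs per 1000000 UMIs (CPM) in the Fosl2F/F libraries and at 167 and 115 CPM in the libraries labelled Fosl2cKO. The groups overlap, so these values do not check the labels, which are used as given. A 3′ tag can lie outside the deleted part, and whether it does so here was not tested.

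A dividing cell first copies its DNA in S phase and then builds a spindle of microtubules in mitosis. Cyclin-dependent kinase 1 (Cdk1) with its cyclins starts mitosis, the kinetochore couples each centromere to the spindle, and the spindle checkpoint holds the anaphase-promoting complex in check until every chromosome is attached. That complex then marks cyclin B and securin for destruction, the sister chromatids part, and the midzone and a contractile ring split the cell. Most of these genes are transcribed in a wave in G2 and M phase. In the ovary, GCs of growing follicles are known to divide actively, theca and stromal cells divide more slowly, blood vessels grow with each follicle and corpus luteum, and luteal cells have mostly left the cell cycle.

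Promoters of this wave are known for 2 short motifs, the CHR element and the CCAAT box, and they are shown first because they are a feature the members share that the choice of genes did not use. A window of 250 bases before to 50 after the RefSeq start was held for 30 of the 39 members (RefSeq, GRCm38.p6). It was missing for Cdc25c, Pbk, Spc24, Aurkb, Ccna2, Incenp, Kif20a, Cdca2 and Tpx2. The CHR letters, searched as TTTGAA or TTCGAA on both strands, occurred in the windows of 26 of the 30 members (86.7%), against 21.7% of the 27025 genes with a window. Within 50 bases of the start they occurred in 24 members (80.0%), against 6.12% of all genes. CCAAT on either strand occurred in 23 members (76.7%, all genes 41.1%) and at 2 or more places in 16 (53.3%, all genes 13.3%). The windows of Birc5, Ccnb1, Cenpe and Nuf2 held no CHR match, which says only that these letters are not in these windows. The 30 bases around the match nearest to the start are given for 7 of the 8 members with a match among the 10 highest in gated granulosa-like cells, and for Bub1 and Hmmr, which the lineage and phase comparisons turn on. Each is written on the strand of its gene with the match in capitals, TTCAAA being TTTGAA read on the other strand and TTCGAA its own reverse complement.
Ube2c (chr2:164769888-164769917, + strand): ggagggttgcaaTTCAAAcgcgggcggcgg
Top2a (chr11:99024195-99024224, - strand): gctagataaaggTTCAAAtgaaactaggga
Cdk1 (chr10:69352910-69352939, - strand): taccgcggcgagTTTGAAactgctggcact
Cenpa (chr5:30666890-30666919, + strand): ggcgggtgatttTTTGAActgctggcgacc
Cdc20 (chr4:118437344-118437373, - strand): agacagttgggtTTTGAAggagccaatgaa
Prc1 (chr7:80294434-80294463, + strand): cctctggctcggTTTGAAttccgcggggtc
Mki67 (chr7:135716460-135716489, - strand): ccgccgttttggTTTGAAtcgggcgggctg
Bub1 (chr2:127831828-127831857, - strand): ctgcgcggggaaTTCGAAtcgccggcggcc
Hmmr (chr11:40733412-40733441, - strand): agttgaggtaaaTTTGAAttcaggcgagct
A match in letters is a description of the sequence and was not tested for binding of any factor.

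The 4 libraries held 104303269 to 111314200 UMIs in 6760 to 19575 cells after filters and removal of likely doublets. One of them, Fosl2F/F 2, stood apart with 19575 cells at a median of 3655 UMIs, against 6760 to 8150 cells at 11177 to 12465 UMIs in the other 3, and each pair of libraries shared 15 to 81 barcodes. Values for 4 libraries are given below in the order Fosl2F/F 1, Fosl2F/F 2, Fosl2cKO 1 and Fosl2cKO 2. Clusters were named from marker genes as granulosa-like (6 clusters), theca-stromal-like (4), endothelial-like (2, blood and lymphatic) and immune-like (4, led by macrophage, T or NK, major histocompatibility class II and B cell genes). No listed cell-cycle gene and no member was used to cluster, but members were among the leading genes of 2 of the granulosa-like clusters (Ube2c, Pbk and Bub1 in the one led by Inhbb, Pbk, Ube2c and Aurka in the one led by Gm26917). The largest granulosa-like cluster was the one with Cyp19a1 and Inhba among its leading genes in Fosl2F/F 1, the one led by Cdh12 and Pcsk6 in Fosl2F/F 2, the one led by Inhbb and Cox4i2 in Fosl2cKO 1 and the one led by Kcnq5 and Foxp2 in Fosl2cKO 2. Clusters led by Abcb1b and Hao2 and by Myh11 stayed unnamed and were left out.

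Of the 4 lineages, GCs held the largest share of cells with cell-cycle UMIs in every library. Each cell with at least 2000 UMIs was thinned to 2000, and it was called gated if it then held 3 or more UMIs of 30 S-phase and 35 M-phase gating genes, none of them a member. Of the granulosa-like cells 50.9, 61.2, 63.0 and 61.9% were gated (2264 of 4449, 3705 of 6055, 1347 of 2137 and 1462 of 2361 cells). Theca-stromal-like cells followed at 22.9, 35.5, 23.5 and 26.4%, endothelial-like cells at 18.9, 40.3, 37.8 and 29.3%, and immune-like cells at 25.3, 26.1, 28.9 and 31.1%. Luteal-like cells, which should hold few dividing cells, were gated at 5.60, 11.2, 18.4 and 13.7% and were taken as the background. The 4 lineages lay above it in each library, and the 3 other than GCs changed order from library to library. Epithelial-like cells were gated at 20.2, 12.6, 18.7 and 14.3%. That lay above endothelial-like cells in Fosl2F/F 1 and below all 4 lineages in the other libraries. Without thinning, the same 3 UMIs were reached by 96.5, 83.2, 97.8 and 97.9% of granulosa-like cells (median depths of 13915, 4939, 19625 and 18438 UMIs) and by 85.6, 73.3, 94.7 and 94.8% of luteal-like cells (22407, 8164, 16033 and 15588 UMIs). For the other lineages the unthinned shares were 77.5, 62.4, 86.9 and 81.0% in theca-stromal-like, 71.6, 72.6, 83.5 and 75.4% in endothelial-like and 67.3, 44.6, 75.8 and 72.9% in immune-like cells, all below the luteal-like ones of the same library, so only the thinned shares were read.

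Between conditions, both Fosl2cKO libraries had larger shares of gated cells than both Fosl2F/F libraries in granulosa-like and immune-like cells. The luteal-like cells taken as background did so too, at 18.4 and 13.7% in Fosl2cKO against 5.60 and 11.2% in Fosl2F/F libraries. The part of background gating in the differences was not tested. The exact permutation test of 2 libraries against 2 cannot pass a threshold of 0.05. The Fosl2cKO minus Fosl2F/F difference was 6.44 percentage points in granulosa-like cells (56.0 ± 7.28 against 62.5 ± 0.784%, SD, n = 2 each, two-sided exact permutation p = 0.33, the smallest that 2 against 2 libraries allow). In immune-like cells it was 4.25 points (25.7 ± 0.530 against 29.97 ± 1.56%, exact permutation p = 0.33), and with doublets kept it was -0.0148 points. In theca-stromal-like cells it was -4.27 points and in endothelial-like cells 3.97 points, with overlapping groups (exact permutation p = 1 in both). The granulosa difference rested on Fosl2F/F 1, the lowest library, and was 1.29 points without it and 11.6 points without Fosl2F/F 2. The theca-stromal difference turned to 2.04 points without Fosl2F/F 2, and the endothelial one to -6.70 points without Fosl2F/F 1, which held 28 gated cells, and to -0.269 points without Fosl2cKO 1. Cells under 2000 UMIs, which were left out, made up 20.3% of Fosl2F/F 2 and 4.23 to 6.17% of the other libraries.

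**Figure D1:**
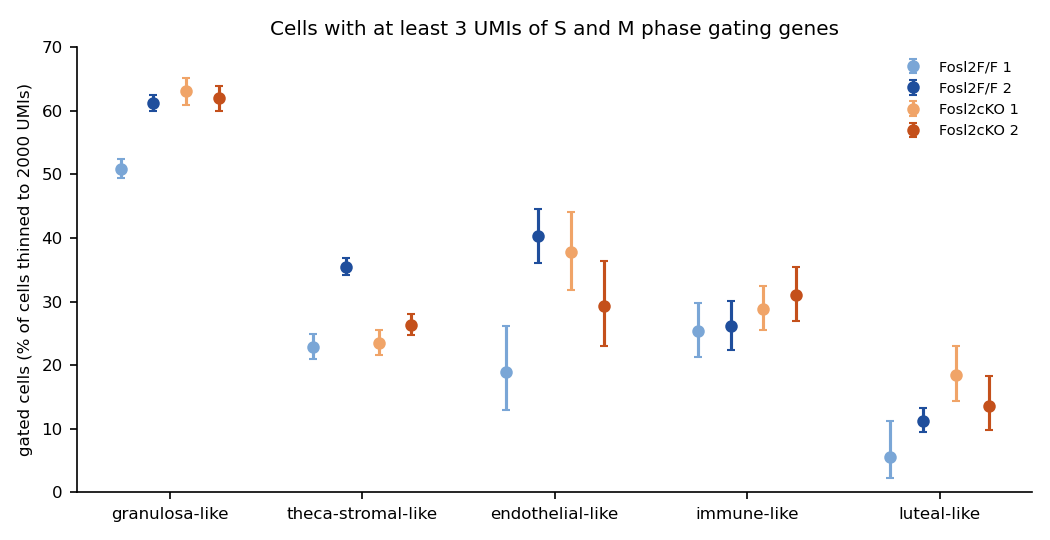
Share of gated cells (%, vertical axis, from 0) by lineage (horizontal axis), one point per library coloured by condition, with exact 95% binomial intervals that cover counting error only. Granulosa-like cells lie at 50.9 to 63.0% in all 4 libraries, and luteal-like cells at 5.60 to 18.4%.

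In gated cells the 39 members together made up 4379, 4200.3, 4618 and 4182 CPM of the granulosa-like UMIs. They reached 4124, 3636, 2708 and 4293 CPM in theca-stromal-like, 2118, 3709, 4427 and 1946 CPM in endothelial-like and 1484, 1836, 1452 and 2208 CPM in immune-like gated cells. Immune-like cells were lowest in 3 of the 4 libraries and endothelial-like cells in Fosl2cKO 2. In cells with no gating UMI the sum was 184 to 372 CPM across the 4 lineages, and in all luteal-like cells 137 to 338 CPM. The members thus marked the cells that the gate on other cell-cycle genes picked out, which that gate favours by design. At equal depth, 48.6, 51.8, 58.9 and 55.3% of gated granulosa-like cells had 3 or more members detected in 2000 UMIs, and 2.55 to 3.36% of ungated ones. In gated luteal-like cells that share was 0, 3.08, 8.47 and 0%. The same share of gated cells was 35.3, 35.8, 21.2 and 38.1% in the theca-stromal-like lineage, 7.14, 48.9, 55.2 and 35.7% in the endothelial-like one and 21.8, 30.7, 12.8 and 17.7% in the immune-like one. The summed level in gated endothelial-like cells was 48.4, 88.3, 95.9 and 46.5% of that of GCs in the same library, so libraries of one genotype stood far apart.

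**Figure D2:**
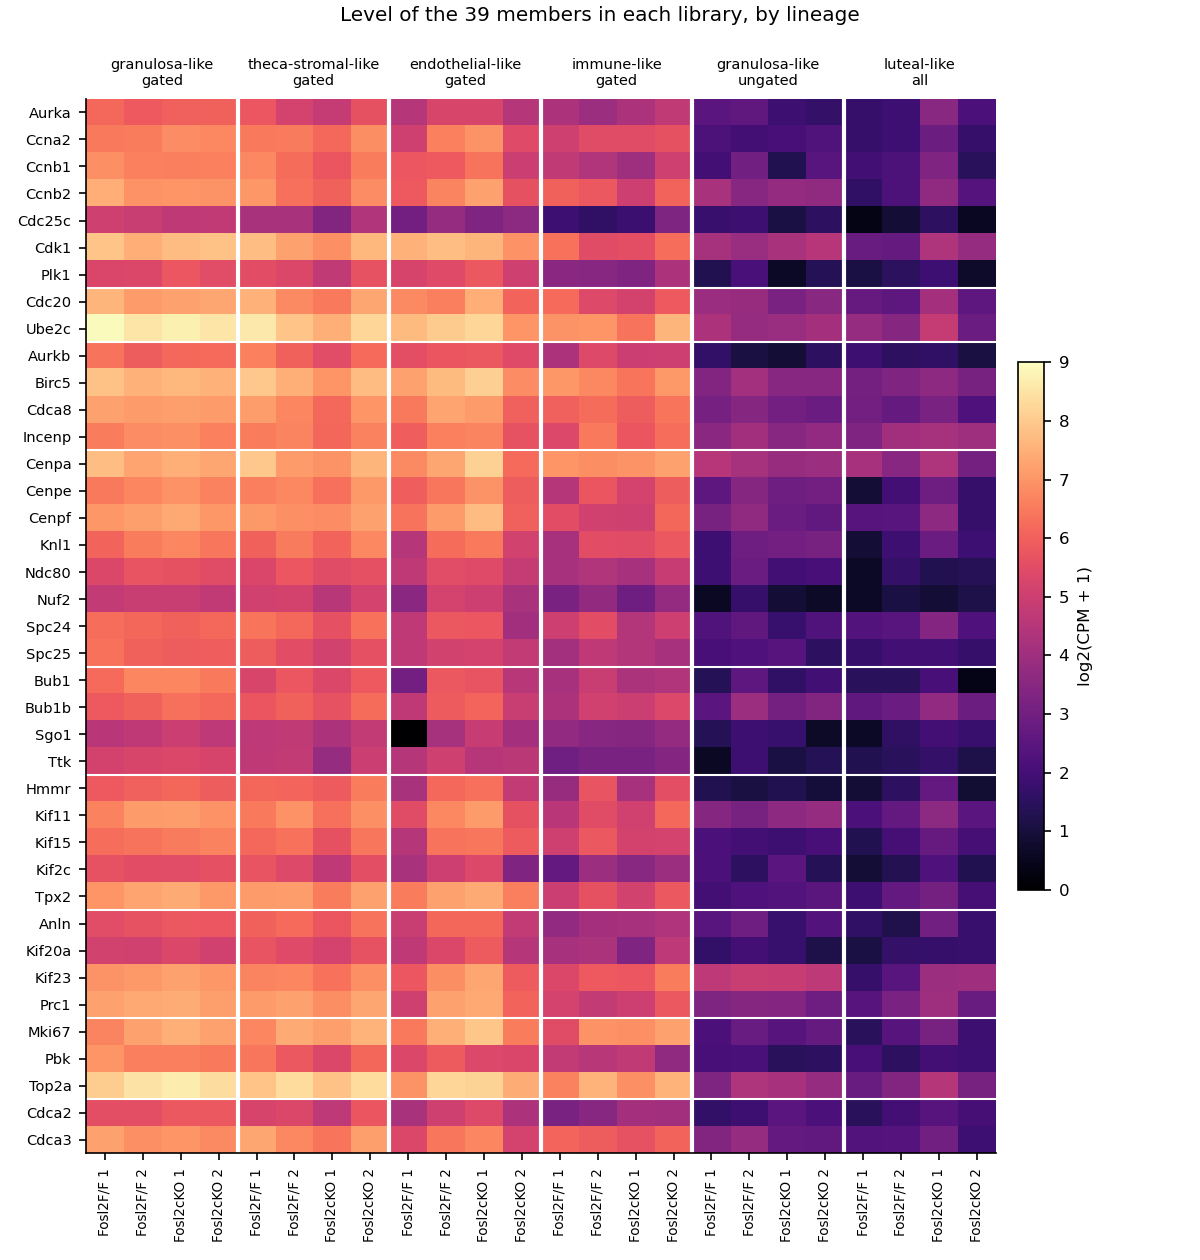
Level of each member (rows, log2(CPM + 1), colour) in each library (columns) for gated cells of the 4 lineages, ungated granulosa-like cells and all luteal-like cells, with white lines between lineages and between roles. Gated granulosa-like columns are brighter than ungated ones for each member, and the black cell is Sgo1 at 0 CPM in endothelial-like cells of Fosl2F/F 1.

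Lineages were compared within libraries, since each library gave cells of all 4, and a gene counted as called when its log2 difference exceeded 0.25 in either direction with an adjusted p below 0.1 (edgeR quasi-likelihood test with library as a block, Benjamini-Hochberg adjustment over all genes tested). Against gated granulosa-like cells, gated theca-stromal-like cells had 2 of 39 members higher and 17 lower, endothelial-like cells 0 higher and 22 lower, and immune-like cells 0 higher and 39 lower. The endothelial count was 34 without Fosl2cKO 1 (53.2% of all genes called in either direction), and the calls of Prc1, Ccnb2, Cdc20 and Bub1b were lost without Fosl2F/F 1, which held 28 gated endothelial-like cells, those of Ccnb2 and Bub1b also without Fosl2cKO 2, and that of Prc1 also with doublets kept (log2 difference -0.45, adjusted p = 0.109 by edgeR). Differences between lineages were common among all genes. In the theca-stromal comparison 31.0% of 16497 genes were called higher and 32.3% lower, in the endothelial one 26.4 and 31.9% (58.2% in all) of 15719, and in the immune one 26.1 and 36.9% of 16129. The members' median log2 difference was -0.18, -0.48 and -1.23, beside -0.02, -0.13 and -0.25 for all genes. Without 1 library the endothelial median ran from -0.76 (without Fosl2cKO 1) to -0.33 (without Fosl2F/F 1).

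The theca-stromal result depended on the number of gating UMIs required. With 5 or more gating UMIs the calls turned to 18 higher and 4 lower with a median of 0.21 (61.1% of 15577 genes called in either direction), and with 2 or more they were 0 higher and 35 lower with a median of -0.55 (65.3% of 17188 genes). Called higher at 5 or more were Anln, Kif20a, Aurkb, Birc5, Ccna2, Cdca3, Cenpa, Cenpe and Cenpf. So were Hmmr, Knl1, Mki67, Ndc80, Nuf2, Prc1, Sgo1, Spc24 and Tpx2. The differences by role below are at 3 or more gating UMIs unless another gate is named. Anln and Kif20a were called higher at both 3 and 5 UMIs, though not at coarser or finer clustering, and Aurka, Bub1, Cdc25c and Pbk were called lower at both. No member was called in opposite directions at 3 and 5 UMIs. Without Fosl2cKO 1 there were 4 higher and 8 lower (60.1% of all genes called), with a median of 0.00, and the members no longer called were Ccnb1, Cdc20, Cdca2, Cdca8, Cdk1, Kif11, Kif15, Kif23 and Top2a. The calls of Kif11 and Kif15 were also lost without Fosl2F/F 1, that of Kif15 without Fosl2cKO 2, and those of Kif11 and Cdc20 without Fosl2F/F 2. Of the gated granulosa-like cells 1439 of 2264, 2374 of 3705, 931 of 1347 and 974 of 1462 were M-gated (3 or more UMIs of the M-phase gating genes). Of the gated theca-stromal-like cells 184 of 405, 749 of 1637, 155 of 429 and 330 of 677 were M-gated. In endothelial-like cells it was 11 of 28, 129 of 219, 63 of 96 and 27 of 56. In immune-like cells it was 48 of 110, 67 of 137, 83 of 196 and 66 of 147. The gated cells of the lineages thus differed in their M-gated part. The parts of this difference, and of background gating as seen in luteal-like cells, in the lineage results were not tested. In immune-like cells 27 of the 39 members remained called lower at 5 or more UMIs (53.0% of all genes called), with a median of -0.63, while Birc5, Cdca3, Cdca8, Cenpa, Hmmr, Incenp, Kif20a, Knl1, Mki67, Ndc80, Sgo1 and Spc24 were no longer called. In endothelial-like cells too few cells were left for that gate (9 in the smallest library). The 14 granulosa markers stood in gated theca-stromal-like, endothelial-like and immune-like cells at 2.25 to 6.52% of their level in gated granulosa-like cells. The part of these UMIs in the members' levels was not tested.

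**Figure D3:**
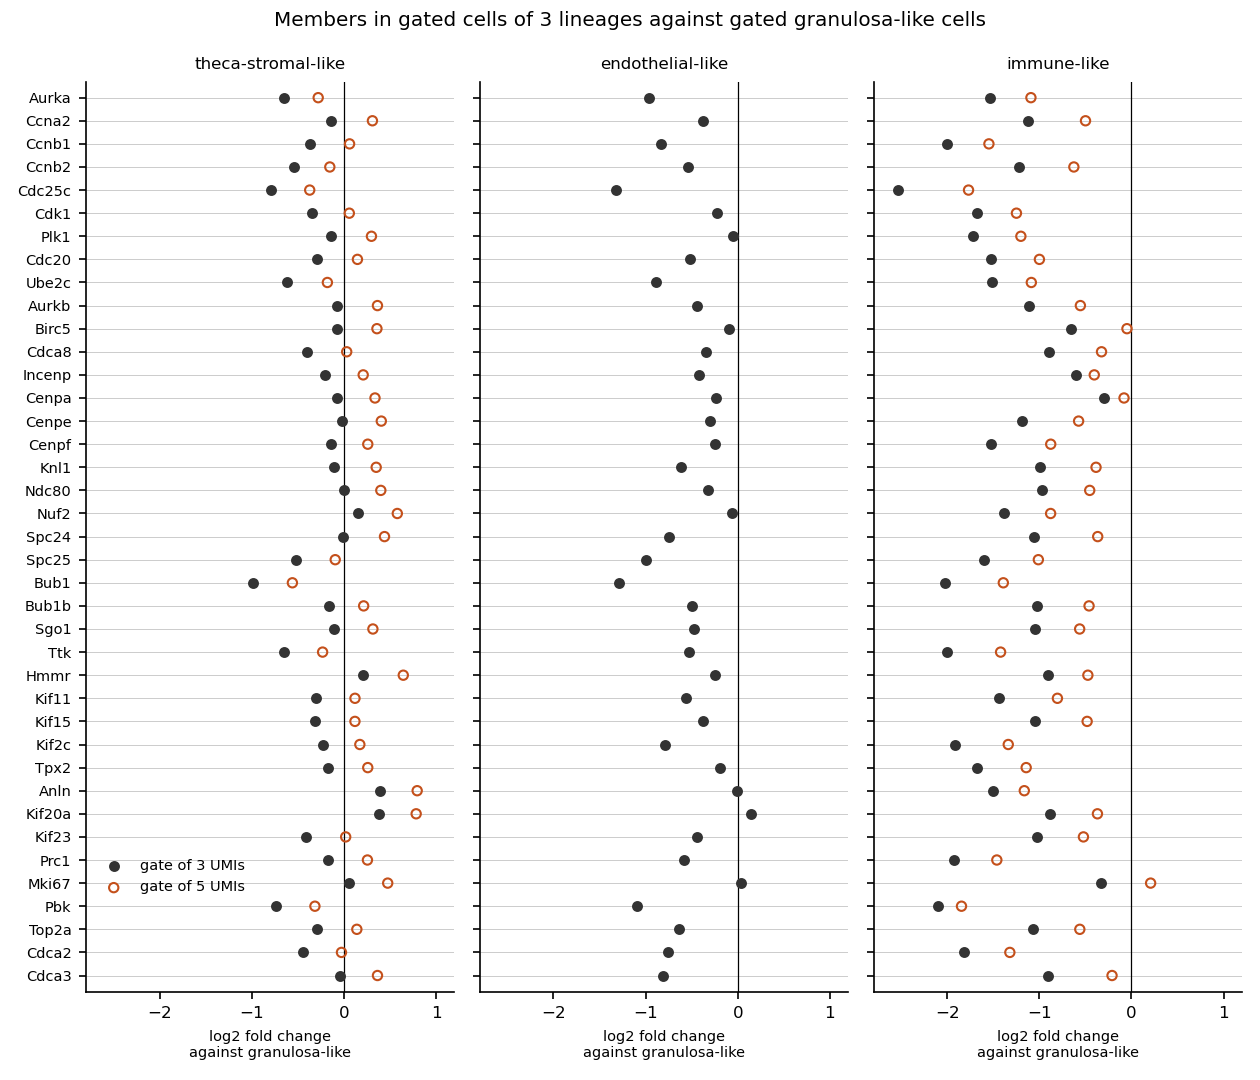
Log2 fold change of each member (rows) in gated theca-stromal-like, endothelial-like and immune-like cells against gated granulosa-like cells (horizontal axis, 0 is no difference) (filled points), and the value at the gate of 5 or more UMIs where it could be fitted (open points). The immune-like values at the gate of 3 UMIs all lie below 0, and the theca-stromal-like values shift right at the higher gate.

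The chromatin and proliferation marks are Top2a, the topoisomerase that untangles sister chromatids, Mki67, which coats mitotic chromosomes, and the mitotic kinase Pbk. Top2a stood at 269, 359.5, 403 and 335 CPM in gated granulosa-like and 239, 328, 228 and 324 CPM in gated theca-stromal-like cells (log2 difference -0.29 ± 0.13, adjusted p = 0.0764). It reached 126, 301, 287 and 174 CPM in endothelial-like cells (-0.63 against GCs) and 99.9, 189, 120.4 and 191 CPM in immune-like cells (-1.07). Top2a was thus lower than in GCs in all 4 libraries of each lineage, but its theca-stromal call was lost without any 1 of the 4 libraries (-0.09 without Fosl2cKO 1, and -0.30 to -0.34 without each of the others) and at 5 or more gating UMIs (0.14). At 3 or more gating UMIs Mki67 was called in immune-like cells but in neither of the other lineages, with 103, 149, 179 and 149.8 CPM in granulosa-like, 106, 167, 143 and 189 in theca-stromal-like and 89.7, 182, 245 and 92.3 in endothelial-like cells (log2 differences 0.05 and 0.04). At 5 or more, Mki67 was called higher in theca-stromal-like cells. In immune-like cells it stood at 43.2, 123, 119.5 and 149 CPM (log2 difference -0.33 ± 0.16, adjusted p = 0.089), lower than in GCs in all 4 libraries, and at 5 or more gating UMIs its difference was 0.21 and not called. Pbk was lower in every lineage, with 128, 94.9, 96.3 and 88.8 CPM in GCs, 87.5, 55.4, 38.7 and 68.6 in theca-stromal-like cells (-0.74), 39.5, 58.9, 40.4 and 37.8 in endothelial-like cells (-1.10) and 27.0, 22.6, 25.6 and 11.7 in immune-like cells (-2.10, adjusted p = 8.08e-10 by edgeR). Its groups did not overlap between GCs and any of the other 3. The share of all genes separated in this way was not counted, here or where overlap between lineages is named below.

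Cyclins, Cdk1 and its activators drive entry into mitosis, and 5 of these 7 members were called lower in theca-stromal-like cells, 4 in endothelial-like cells and 7 in immune-like cells. At 5 or more gating UMIs the theca-stromal differences of Cdk1, Ccnb1 and Ccnb2 were 0.058, 0.061 and -0.15, none of them called. The theca-stromal calls of Cdk1 and Ccnb1 were also lost without Fosl2cKO 1. Cdk1, the kinase itself, stood at 239, 176, 214 and 229.8 CPM in granulosa-like and 220.0, 149, 120.0 and 199.8 CPM in theca-stromal-like cells (log2 difference -0.35 ± 0.12, adjusted p = 0.0342). In endothelial-like cells it was at 183, 221, 196 and 123 CPM (-0.23, not called) and in immune-like cells at 79.7, 43.1, 47.0 and 76.3 CPM (-1.68). Of the B-type cyclins, Ccnb1 stood at 119.7, 98.9, 95.4 and 98.5 CPM in GCs, 109, 74.7, 52.5 and 92.1 in theca-stromal-like, 53.8, 56.6, 82.0 and 30 in endothelial-like and 25.7, 20.5, 14.8 and 32.3 in immune-like cells. Ccnb2 stood at 175, 123, 128 and 126 CPM in GCs, 131, 79.3, 64.0 and 114 in theca-stromal-like, 57.4, 104, 149 and 48.9 in endothelial-like and 64.8, 55.4, 31.3 and 66.5 in immune-like cells. Both cyclins were lower in each lineage (log2 differences -0.37, -0.83 and -2.00 for Ccnb1 and -0.55, -0.54 and -1.23 for Ccnb2). The immune-like libraries lay under all 4 GC libraries for both. Ccna2, the cyclin A of S and G2 phase, stood at 88.3, 93.5, 114 and 107 CPM in GCs and 89.2, 91.1, 70.9 and 117 CPM in theca-stromal-like cells, a log2 difference of -0.14 that was not called.

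Among the activators the phosphatase Cdc25c, which removes the inhibitory phosphates of Cdk1, had the largest endothelial and immune differences. It stood at 31.7, 29.1, 24.7 and 26.4 CPM in GCs, 17.7, 18, 9.55 and 20.2 in theca-stromal-like, 7.18, 13.2, 8.91 and 11.1 in endothelial-like and 2.70, 2.05, 2.47 and 8.80 in immune-like cells. Its log2 differences of -0.79, -1.32 and -2.53 ± 0.35 were, in the last 2, the largest of the 39 members, and in every lineage its 4 values lay below the 4 of GCs. That rank rests on few UMIs. The endothelial-like value of Fosl2F/F 1 lay under the level of 3 UMIs (10.8 CPM), and in gated immune-like cells Cdc25c was too low to test between conditions. The centrosome kinase Aurka stood at 71.5, 56.5, 63.0 and 64.7 CPM in GCs and 54.3, 35.6, 27.7 and 49.0 CPM in theca-stromal-like cells (log2 difference -0.65 ± 0.13, adjusted p = 0.00282), lower than in GCs in all 4 libraries. Aurka reached 21.5, 37.2, 37.4 and 21.1 CPM in endothelial-like cells (-0.96) and 18.9, 14.4, 19.0 and 25.4 CPM in immune-like cells (-1.54). Plk1, the polo-like kinase of mitotic entry, was called lower only in immune-like cells, at 10.8, 10.3, 9.07 and 18.6 CPM against 38.3, 39.4, 54.7 and 43.9 CPM in GCs (-1.72). A test of that lineage difference against the others was not made.

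Both members of the anaphase-promoting complex machinery were lower in all 3 lineages. Ube2c, the ubiquitin-conjugating enzyme that works with the complex, was the member with the most UMIs in gated GCs and stood there at 489, 367, 424 and 364 CPM, against 386, 234, 180.1 and 303 CPM in theca-stromal-like cells (log2 difference -0.62 ± 0.15, adjusted p = 0.00679). It reached 208, 259, 302 and 127 CPM in endothelial-like cells (-0.88) and 126, 129, 83.3 and 195 CPM in immune-like cells (-1.51). Ube2c in GCs lay above every value of the 3 other lineages except the 386 CPM of theca-stromal-like cells in Fosl2F/F 1. Cdc20, the activator that the spindle checkpoint blocks, stood at 194, 139, 152 and 158 CPM in GCs and 186, 110.4, 87.6 and 159.8 CPM in theca-stromal-like cells (-0.29 ± 0.13, adjusted p = 0.079). Endothelial-like cells held 111, 95.5, 175 and 65.6 CPM (-0.52) and immune-like cells 72.9, 41.0, 34.6 and 56.7 CPM (-1.53). At the gate of 5 or more UMIs the theca-stromal difference was 0.15 for Cdc20 and -0.18 for Ube2c, neither called.

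The chromosomal passenger complex, in which the kinase Aurkb is held at the centromere by Birc5 (survivin), Incenp and Cdca8 (borealin), had 1 member lower in theca-stromal-like cells, 2 in endothelial-like cells and 4 in immune-like cells. Birc5 stood at 229, 186, 197 and 184 CPM in GCs, 249, 181, 129 and 214 in theca-stromal-like and 147, 212, 272 and 112 in endothelial-like cells, log2 differences of -0.07 and -0.10 that were not called. Immune-like cells held 132, 107, 84.1 and 136 CPM (log2 difference -0.66 ± 0.15, adjusted p = 0.000509), a difference of -0.05 at 5 or more gating UMIs, where Birc5, Incenp and Cdca8 were not called. Cdca8 was the member of the complex lower in theca-stromal-like cells, at 142, 105, 70.7 and 129 CPM against 154, 139, 144 and 139 CPM in GCs (-0.40 ± 0.14, adjusted p = 0.0401), and each theca-stromal-like value was below that of GCs in the same library. At 5 or more gating UMIs the theca-stromal difference of Cdca8 was 0.030 and not called. Cdca8 stood at 89.7, 156, 139 and 63.4 CPM in endothelial-like cells and at 62.1, 73.8, 60.2 and 84.1 CPM in immune-like cells. Aurkb stood at 83.3, 59.8, 71.3 and 72.2 CPM in GCs, 46.7, 52.6, 55.9 and 42.3 in endothelial-like cells (-0.45, adjusted p = 0.0256 by edgeR) and 18.9 to 41.0 CPM in immune-like cells (-1.11). Incenp ranged over 92.2 to 119 CPM in GCs and 40.5 to 88.2 CPM in immune-like cells (-0.60).

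Of the 8 centromere and kinetochore members, 1 was lower in theca-stromal-like cells (Spc25), 3 in endothelial-like cells (Spc24, Spc25 and Knl1) and 8 in immune-like cells. Cenpa, the histone variant that marks centromeres, stood at 219.8, 157, 179 and 161 CPM in GCs, 248, 137, 124 and 192 in theca-stromal-like, 111, 158, 279 and 72.3 in endothelial-like and 129.6, 117, 124 and 148 in immune-like cells. It had the smallest log2 difference of all members in immune-like cells (-0.30 ± 0.14, adjusted p = 0.076), and at the higher gate that difference was -0.08 and not called. Of the 4 subunits of the Ndc80 complex, which binds microtubules, Spc25 was called lower in theca-stromal-like cells and the others were not. Spc25 stood at 80.4, 65.0, 59.0 and 61.4 CPM in GCs, 59.3, 45.8, 33.9 and 47.7 in theca-stromal-like (-0.52), 25.1, 33.7, 35.1 and 26.7 in endothelial-like (-1.0) and 16.2, 24.6, 20.6 and 17.6 in immune-like cells (-1.60). The theca-stromal difference of Spc25 at 5 or more gating UMIs was -0.09 and not called. Its partner Spc24 stood at 75.8, 68.7, 64.8 and 71.7 CPM in GCs and 84.9, 70.5, 47.8 and 81.3 CPM in theca-stromal-like cells, a log2 difference of -0.01 that was not called, and at 25.1, 56.1, 54.7 and 15.6 CPM in endothelial-like cells (-0.75). A test of Spc25 against Spc24 was not made. Ndc80 and Nuf2, the other two subunits, had theca-stromal log2 differences of -0.00 ± 0.08 and 0.16 ± 0.13 (not called). Nuf2 was lower in immune-like cells, at 8.10, 12.3, 6.60 and 12.7 CPM against 27.2, 29.3, 28.7 and 26.3 CPM in GCs (-1.38), and all 4 immune values lay under all 4 GC values. Knl1, the scaffold that recruits the checkpoint, stood at 66.5, 92.1, 106 and 86.9 CPM in GCs and 21.5, 73.8, 89.7 and 33.4 CPM in endothelial-like cells (-0.62). Cenpf, a large outer kinetochore protein, stood at 130.4, 146, 166 and 131 CPM in GCs and 45.9, 32.8, 32.2 and 69.4 CPM in immune-like cells (-1.52). Cenpe, the kinetochore motor, ranged over 87.9 to 123 CPM in GCs, 78.6 to 134 in theca-stromal-like and 21.6 to 59.6 in immune-like cells.

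The spindle checkpoint held the largest theca-stromal difference. Bub1, the kinase that marks kinetochores for the checkpoint and for cohesin protection, stood at 73.2, 104, 104 and 88.9 CPM in GCs and 37.5, 54.6, 38.7 and 56.5 CPM in theca-stromal-like cells (log2 difference -0.99 ± 0.12, adjusted p = 0.000146), with no overlap. In endothelial-like cells Bub1 stood at 7.18, 56.1, 51.7 and 22.2 CPM (-1.28) and in immune-like cells at 17.6, 28.7, 18.1 and 20.5 CPM (-2.02), again under all GC values. It remained lower in theca-stromal-like cells at the higher gate (-0.56, adjusted p = 0.00046 by edgeR). Its relative Bub1b (BubR1) stood at 56.4, 64.4, 77.6 and 71.3 CPM in GCs and 25.1, 57.8, 67.1 and 28.9 CPM in endothelial-like cells (-0.50), and its theca-stromal difference of -0.17 was not called. Ttk, the kinase Mps1 that starts the checkpoint, stood at 34.6, 36.9, 39.4 and 36.4 CPM in GCs, 24.6, 27.0, 13.2 and 30.5 in theca-stromal-like (-0.65), 21.5, 32.0, 22.0 and 23.4 in endothelial-like (-0.53) and 6.75, 8.21, 8.24 and 9.78 in immune-like cells (-2.00). Ttk was lower outside GCs in every library, but its theca-stromal difference at 5 or more gating UMIs was -0.23 and not called. Sgo1 (shugoshin), which guards centromeric cohesin, ranged over 23.2 to 30.5 CPM in GCs and 18.8 to 26.6 CPM in theca-stromal-like cells (-0.10, not called).

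Among the spindle motors and assembly factors, Kif11 and Kif15, both plus-end motors that push the poles apart, were lower in theca-stromal-like cells. Kif11 stood at 100.4, 137, 142 and 122 CPM in GCs and 89.0, 122, 78.6 and 118 CPM in theca-stromal-like cells (-0.31 ± 0.13, adjusted p = 0.0671), at 43.1, 108, 137 and 48.9 CPM in endothelial-like cells (-0.56) and at 23.0, 43.1, 33.0 and 71.4 CPM in immune-like cells (-1.44). Kif15 stood at 75.8, 83.2, 90.9 and 99.4 CPM in GCs and 70.7, 79.8, 48.4 and 85.4 CPM in theca-stromal-like cells (-0.31 ± 0.14, adjusted p = 0.0795). Both motors were lower in each of the 4 libraries, and neither was called at the higher gate (0.12 and 0.12). Tpx2, which nucleates spindle microtubules and activates Aurka, stood at 128, 155, 169 and 136 CPM in GCs and 29.7, 49.2, 33.8 and 54.7 CPM in immune-like cells (-1.68), with a theca-stromal difference of -0.17 (not called). Kif2c, the kinetochore depolymerase, stood at 49.9, 45.0, 44.9 and 48.1 CPM in GCs, 17.9, 30.9, 39.8 and 8.90 in endothelial-like (-0.79) and 5.40, 14.4, 10.7 and 14.7 in immune-like cells (-1.92). Hmmr, which binds spindle microtubules, ranged over 56.7 to 68.8 CPM in GCs and 57.6 to 93.3 CPM in theca-stromal-like cells, a log2 difference of 0.20 ± 0.13 that was not called.

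At 3 or more gating UMIs, the midzone and cytokinesis genes were the group in which 2 members were called higher outside GCs. At 5 or more, 18 members were called higher in theca-stromal-like cells, among them members of other roles. Anln (anillin), the scaffold of the contractile ring, stood at 63.8, 72.6, 53.3 and 81.8 CPM in gated theca-stromal-like cells and 44.4, 50.7, 56.0 and 54.6 CPM in gated granulosa-like cells (log2 difference 0.39 ± 0.11, adjusted p = 0.0178). Kif20a, a motor of the central spindle, stood at 52.1, 42.6, 35.0 and 50.5 CPM in theca-stromal-like and 33.5, 33.0, 38.6 and 32.5 CPM in granulosa-like cells (0.38 ± 0.13, adjusted p = 0.0345). Anln was higher in 3 of 4 libraries and Kif20a in 3 of 4, with Fosl2cKO 1 as the exception on this unscaled level for both. The call of Kif20a was lost without Fosl2F/F 1 (0.32, adjusted p = 0.108) and without Fosl2cKO 2 (0.32, adjusted p = 0.127), and at 2 or more gating UMIs neither was called (0.05 for Anln and 0.01 for Kif20a), by edgeR in each case. Kif23, the motor of centralspindlin, was lower, at 104, 105, 79.6 and 118 CPM against 126, 133, 148 and 131 CPM in GCs (-0.41 ± 0.12, adjusted p = 0.0159). At 5 or more gating UMIs the difference of Kif23 was 0.019 and not called. Prc1, which bundles midzone microtubules, stood at 151, 165, 173 and 146 CPM in GCs and 138, 149.9, 115 and 160.2 CPM in theca-stromal-like cells (-0.18, not called). In endothelial-like cells Prc1 stood at 32.3, 150.4, 165 and 66.7 CPM (-0.58) and in immune-like cells at 35.1, 26.7, 31.3 and 54.7 CPM (-1.93). Anln was lower in immune-like cells, at 12.2, 16.4, 17.3 and 19.6 CPM (-1.5), a direction opposite to that in theca-stromal-like cells.

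The last 2 members, Cdca2 and Cdca3, regulate mitotic exit and entry. Cdca2, which targets a phosphatase to chromosomes, stood at 46.1, 46.1, 55.1 and 55.5 CPM in GCs and 36.4, 39.2, 24.1 and 52.1 CPM in theca-stromal-like cells (-0.44, adjusted p = 0.0439 by edgeR). This difference was -0.03 and not called at 5 or more gating UMIs. Cdca2 stood at 17.9, 32.0, 41.0 and 18.9 CPM in endothelial-like cells (-0.76) and at 8.10, 10.3, 16.5 and 15.6 CPM in immune-like cells (-1.82). Cdca3 stood at 148, 120.2, 127 and 109.6 CPM in GCs and 39.5, 86.4, 106 and 35.6 CPM in endothelial-like cells (-0.81), with a theca-stromal difference of -0.05 (not called). Of a list of 50 other mitosis genes, 2 were higher and 26 lower in theca-stromal-like cells, 4 higher and 20 lower in endothelial-like cells, and 1 higher and 41 lower in immune-like cells. In theca-stromal-like cells these included Cdc25b, another Cdk1 phosphatase (log2 difference 0.79), Ect2, which turns on RhoA for cytokinesis (-0.96), Cep55 (-0.68), Nek2 (-0.68) and Cdca5 (-0.67). Largest among the endothelial differences were Cenpm (-1.06), Mad2l1, the checkpoint protein Mad2 (-1.05), Cenpp (-0.96), Spag5 (-0.93) and Zwint (-0.80). The immune comparison was led by Ska3 (-2.17), Cenpp (-2.09), Ect2 (-2.05), Kifc1 (-2.02) and Sgo2a (-1.91).

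Within a lineage, the members were higher in cells gated on M-phase genes than in cells gated on S-phase genes alone. M-gated cells (3 or more M-phase gating UMIs) were compared with S-gated cells (3 or more S-phase and 0 M-phase gating UMIs) in the same libraries, with 931 to 2374 M-gated and 43 to 159 S-gated granulosa-like cells and 155 to 749 and 37 to 162 theca-stromal-like cells per library. All 39 members were higher in M-gated cells in both lineages by the edgeR test, against 7.08% of 14425 genes called higher in granulosa-like and 11.2% of 11192 in theca-stromal-like cells. The median log2 difference was 3.20 in granulosa-like and 3.99 in theca-stromal-like cells (all genes 0.01 and -0.01). Of the other 50 mitosis genes 48 were higher in each lineage, led by Kif18b (4.06 and 5.01), Espl1, which codes for separase (3.97 and 4.77), and Kif14 (4.01 and 4.69). Next came Kifc1 (3.78) and Foxm1 (3.57) in granulosa-like cells, and Haspin (4.99) and Kif4 (4.48) in theca-stromal-like cells. The gate chose M-gated cells by other genes of M phase and S-gated cells by the lack of them, so a difference in this direction was built into it. Its size also depends on how far apart the gates lie. The values below therefore describe these gates and do not measure a change from S to M phase. Together the 39 members made up 6104, 5681, 5759 and 5494 CPM of M-gated and 555, 685, 818 and 743 CPM of S-gated granulosa-like cells, the latter above the 248 to 313 CPM of ungated ones. In theca-stromal-like cells the sum was 6760.5, 5991, 5625 and 6807 CPM in M-gated and 365, 624, 262 and 323 CPM in S-gated cells, beside 222 to 292 CPM in ungated ones. S-gated cells were not tested against ungated cells. CPM of single members in this comparison were scaled by TMM.

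In granulosa-like cells the difference ranged from 1.85 for Ccnb2, 2.03 for Spc24 and 2.11 for Cenpa to 4.43 ± 0.11 for Ube2c among the 38 members with UMIs in the S-gated cells of every library. Hmmr stood at 4.76, 3.04, 0 and 1.92 CPM in S-gated and 84.4, 89.7, 87.8 and 82.4 CPM in M-gated cells, the S-gated values being 7, 3, 0 and 2 UMIs. Its fitted difference was 5.0 ± 0.24, where the ± value does not cover the counting error. The pooled ratio of CPM was 31.3, with a counting interval of 17.9 to 60.6. The 0 UMIs of Hmmr in Fosl2cKO 1 allow up to 3.1 CPM (the level of 3 UMIs, TMM-scaled). Ube2c stood at 31.9, 27.4, 24.8 and 22.1 CPM in S-gated and 727, 517, 535 and 501 CPM in M-gated cells (4.43 ± 0.11). In all 39 members every M-gated value lay above every S-gated one, the direction the gate favours. The share of all genes separated in this way was not counted. Nuf2 went from 1.36, 1.01, 4.13 and 0.96 to 39.3, 40.4, 35.9 and 36.0 CPM (4.40), the S-gated values resting on 8 UMIs in all. Kif2c went from 2.72, 7.1, 1.03 and 4.81 to 72.0, 62.9, 56.6 and 65.8 CPM (4.09), and Cdca2 from 3.40, 5.07, 3.1 and 5.77 to 67.4, 64.2, 69.3 and 74.8 CPM (4.01). Among the spindle genes, all low in S-gated cells, Tpx2 went from 10.2, 18.3, 12.4 and 12.5 to 186, 215, 211 and 183 CPM (3.92) and Kif11 from 5.44, 15.2, 10.3 and 21.2 to 146, 189, 178 and 164 CPM (3.75). The midzone genes Kif20a and Prc1 went from 1.36, 5.07, 6.20 and 1.92 to 49.0, 45.2, 48.5 and 44.3 CPM (3.79) and from 17.7, 16.2, 23.8 and 10.6 to 219, 228, 217 and 199.6 CPM (3.67). The mitotic kinases were higher in M-gated cells too. Aurkb went from 6.12, 6.09, 13.4 and 5.77 to 122, 83.2, 89.7 and 99.3 CPM (3.71), Aurka from 10.9, 11.2, 10.3 and 5.77 to 103, 77.9, 78.7 and 87.8 CPM (3.20), and Plk1 from 3.40, 6.09, 5.17 and 4.81 to 56.5, 54.4, 69.7 and 60.7 CPM (3.66). Ttk went from 3.40, 6.09, 5.17 and 3.85 to 49.0, 49.3, 48.3 and 48.8 CPM (3.44). Both cyclins among the 20 members with the largest differences were lower in S-gated cells in every library. Ccnb1 went from 7.48, 12.2, 10.3 and 12.5 to 176, 136, 119.7 and 135 CPM (3.80) and Ccna2 from 10.2, 9.13, 16.5 and 10.6 to 127, 129, 141 and 145 CPM (3.56). At the kinetochore, Cenpf went from 6.80, 23.3, 16.5 and 18.3 to 192, 204, 208 and 178 CPM (3.66), Spc25 from 10.2, 5.07, 9.30 and 8.66 to 116, 89.3, 73.1 and 82.7 CPM (3.45) and Cenpe from 10.2, 13.2, 21.7 and 15.4 to 128, 143, 152 and 135 CPM (3.24). Mki67 went from 6.80, 17.2, 18.6 and 18.3 to 151, 208, 225 and 205 CPM (3.74) and Top2a from 24.5, 48.7, 61.0 and 48.1 to 389, 499, 506 and 455 CPM (3.39).

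In theca-stromal-like cells several members were at 0 in the S-gated cells of one library or more. Among the 28 members with S-gated UMIs in every library, the difference ranged from 2.56 for Ttk and 2.92 for Sgo1 to 4.87 for Ube2c. The fitted differences of the other 11 depend on the count that the fit adds to a 0. Cdca2 had 2 UMIs in all S-gated theca-stromal-like cells and 1203 in M-gated ones, a pooled ratio of CPM of 83.8 with a counting interval of 23.1 to 693. A count of 0 allows up to 5.61 CPM in Fosl2F/F 1, 4.04 in Fosl2F/F 2 and 7.77 in Fosl2cKO 1 on the TMM-scaled level. Its CPM were 0, 0, 0 and 2.63 in S-gated and 63.8, 66.7, 50.2 and 80.3 in M-gated cells. Cdc25c had 3 and 506 UMIs, a ratio of 23.5 (counting interval 7.99 to 114), at 1.87, 1.35, 0 and 1.32 and 31.4, 29.7, 19.0 and 31.5 CPM. Both ratios, which the gate places above 1, are thus known only within wide bounds. Plk1 went from 1.87, 2.69, 0 and 1.32 to 80.7, 67.9, 54.3 and 81.0 CPM on 4 S-gated UMIs, a pooled ratio of 44.4 (counting interval 17.3 to 163). Hmmr was seen in S-gated cells of Fosl2F/F 2 alone, with 8 UMIs (0 in Fosl2cKO 2 allows up to 3.95 CPM), and went from 0, 10.8, 0 and 0 to 127, 116, 125 and 149 CPM (5.28). Kif2c went from 3.74, 2.69, 0 and 1.32 to 89.0, 67.1, 51.7 and 74.1 CPM on 5 S-gated UMIs, a pooled ratio of 34.5 (counting interval 14.8 to 107). Better measured was Ube2c, from 13.1, 18.8, 15.5 and 17.1 to 691, 401, 378 and 481 CPM (4.87 ± 0.17). Knl1 went from 1.87, 10.8, 7.77 and 2.63 to 114, 152, 136 and 169 CPM (4.65), and the passenger genes Cdca8 and Aurkb from 11.2, 8.07, 5.18 and 6.58 to 250.1, 180.4, 147 and 202 CPM (4.64) and from 9.35, 5.38, 0 and 3.95 to 175, 109.5, 96.0 and 114 CPM (4.63). Both are passenger complex subunits, and neither overlapped between gates. Ccna2 went from 1.87, 13.5, 7.77 and 2.63 to 156, 154, 150.2 and 185 CPM (4.62). Cenpf went from 5.61, 10.8, 18.1 and 11.8 to 235, 202, 229 and 234 CPM (4.32), Cenpe from 7.48, 16.1, 2.59 and 7.89 to 167, 180.4, 160.3 and 211 CPM (4.28) and Nuf2 from 3.74, 4.04, 2.59 and 1.32 to 56.9, 58.8, 46.9 and 55.4 CPM (4.24). Like the passenger genes, these kinetochore genes did not overlap between the gates, the direction the gate favours. The share of all genes separated in this way was not counted in this lineage. Tpx2 went from 5.61, 24.2, 10.4 and 5.26 to 245, 239, 195 and 242 CPM (4.30), Kif20a from 3.74, 8.07, 0 and 2.63 to 91.4, 71.9, 69.5 and 78.5 CPM (4.23) and Prc1 from 15.0, 20.2, 7.77 and 15.8 to 241, 254, 237 and 252 CPM (3.99). Aurka went from 5.61, 6.73, 0 and 2.63 to 92.5, 56.6, 55.0 and 75.1 CPM (4.07), and Pbk from 9.35, 9.42, 0 and 2.63 to 151, 92.5, 79.6 and 106 CPM (4.22). Lastly Top2a went from 26.2, 35.0, 25.9 and 22.4 to 423, 562, 466 and 511 CPM (4.17) and Mki67 from 9.35, 28.2, 7.77 and 14.5 to 187, 282, 292 and 292 CPM (4.03), with no overlap in either. Whether a member's difference was larger in theca-stromal-like than in granulosa-like cells was not tested.

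**Figure D4:**
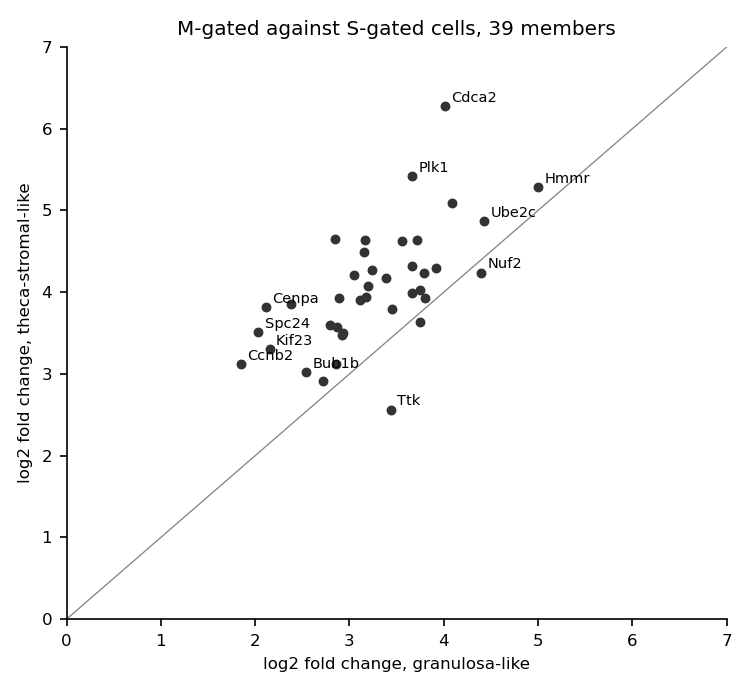
Log2 fold change of each member in M-gated against S-gated cells, in granulosa-like (horizontal axis) and theca-stromal-like cells (vertical axis), with the line of equal values. All 39 points lie above 0 on both axes, from 1.85 to 5.0 in granulosa-like and from 2.56 to 6.28 in theca-stromal-like cells, where the highest point, Cdca2, rests on 2 S-gated UMIs, and some members are labelled by name.

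No member was called between Fosl2cKO and Fosl2F/F in any of the 4 lineages. In gated cells 0 of 39 members were called in granulosa-like, theca-stromal-like and endothelial-like cells, and 0 of 36 in immune-like cells, where Cdc25c, Plk1 and Ttk were too low to test (edgeR quasi-likelihood test, with the same thresholds as above). At an unadjusted p under 0.05 the count was 0 in each of the 4, and DESeq2 also called 0. Among all genes 0.00612% of 16333 were called in gated granulosa-like, 0.0514% of 13620 in theca-stromal-like (0.0441% higher and 0.00734% lower), 0% of 9918 in endothelial-like and 0% of 8555 in immune-like cells, so a count of 0 members is near what the background gives. The members' median log2 fold change was 0.06 in granulosa-like cells, with 22 of 39 above 0, and 0.06 in endothelial-like cells, with 24 above 0. It was -0.26 in theca-stromal-like cells, with 4 of 39 above 0, and 0.03 in immune-like cells, with 20 of 36 above 0. Without 1 library the granulosa median ran from -0.01 (without Fosl2cKO 1) to 0.10 (without Fosl2cKO 2), the endothelial one ran from -0.67 (without Fosl2cKO 1) to 0.69 (without Fosl2F/F 2), and the immune one from -0.23 (without Fosl2cKO 2) to 0.40 (without Fosl2cKO 1). The median of all genes lay within 0.01 of 0 in all 4. The lowest adjusted p of any member was 0.927 in granulosa-like, 0.998 in theca-stromal-like, 1.0 in endothelial-like and 0.729 in immune-like cells.

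**Figure D5:**
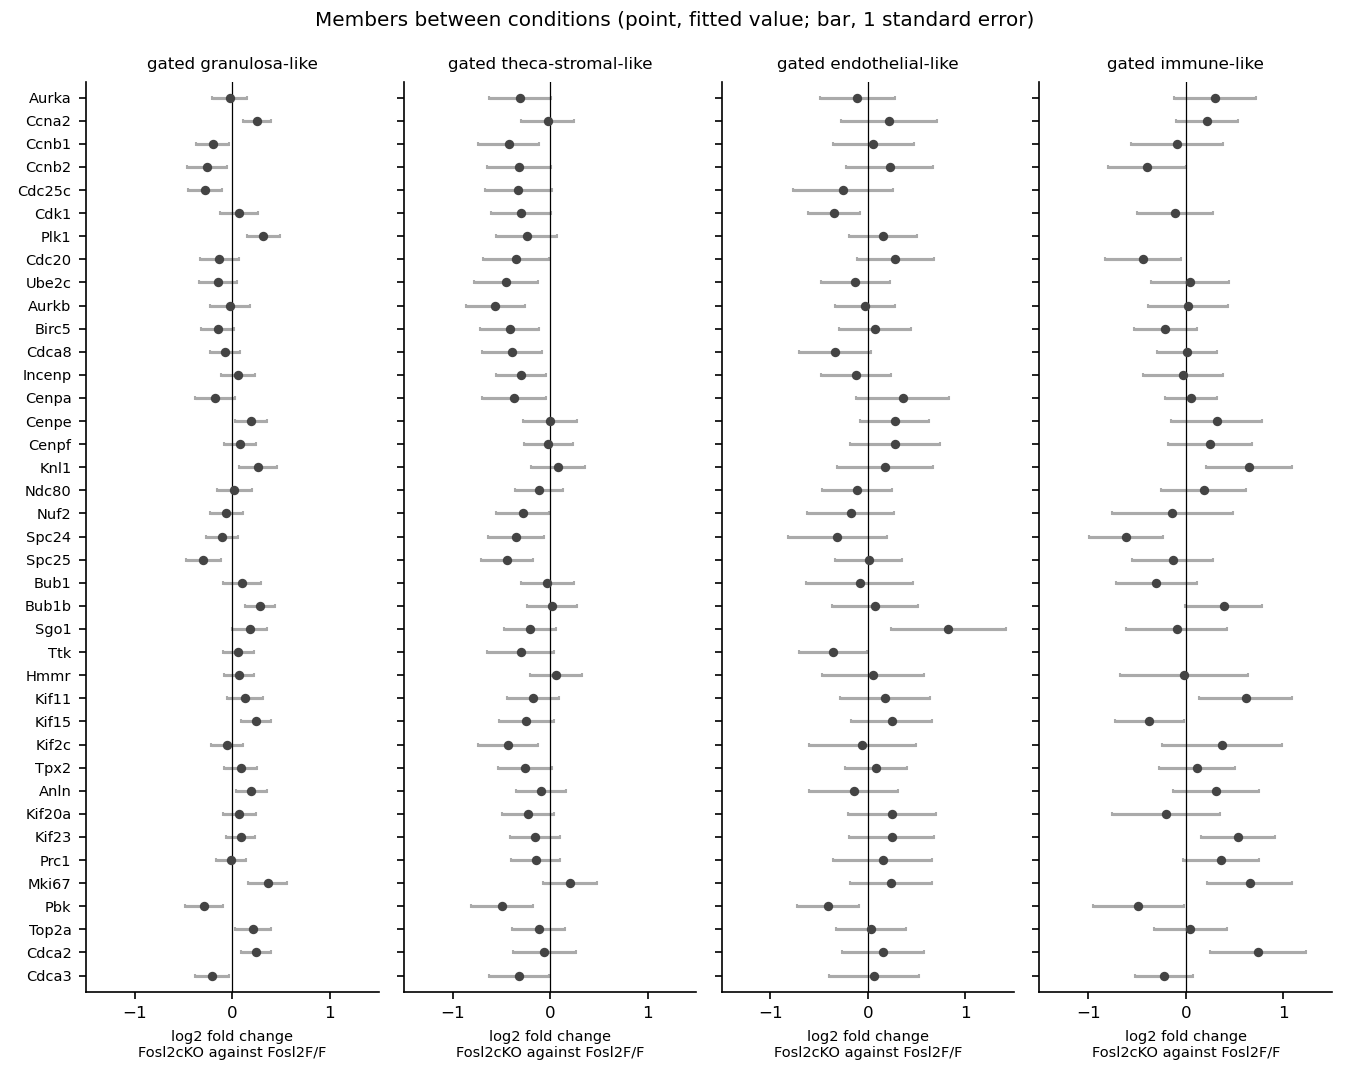
Log2 fold change of each member (rows, by role) in Fosl2cKO against Fosl2F/F (horizontal axis) in gated cells of the 4 lineages, with 1 approximate standard error. Granulosa-like points lie within -0.30 and 0.36, and the error bars widen in endothelial-like and immune-like cells.

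In gated GCs, the lineage that the Cre targets, the members furthest apart were Mki67, Plk1 and Bub1b above 0 and Spc25, Pbk and Cdc25c below. Mki67 stood at 103, 149, 179 and 149.8 CPM (log2 fold change 0.36 ± 0.20, adjusted p = 0.933). Plk1 stood at 38.3, 39.4, 54.7 and 43.9 CPM (0.32 ± 0.17) and Bub1b at 56.4, 64.4, 77.6 and 71.3 CPM (0.28 ± 0.15). In all 3 both Fosl2cKO values lay above both Fosl2F/F values, narrowly so for Mki67. Separation of 2 against 2 libraries reaches a two-sided exact permutation p of 0.33 at the lowest. The share of all genes separated in this way was not counted. Spc25 stood at 80.4, 65.0, 59.0 and 61.4 CPM (-0.30 ± 0.18, adjusted p = 0.947), Pbk at 128, 94.9, 96.3 and 88.8 CPM (-0.29 ± 0.19) and Cdc25c at 31.7, 29.1, 24.7 and 26.4 CPM (-0.28 ± 0.17). Fosl2F/F 1 was the highest library for all 3 of these, and for Spc25 and Cdc25c both Fosl2cKO values lay below both Fosl2F/F values. None of the 6 differences passed the test. Over all granulosa-like cells, gated or not, 0 members were called (0.00579% of 17273 genes), 32 of 39 lay above 0, and the median was 0.19. Without 1 library this median ran from 0.13 (without Fosl2cKO 1) to 0.25 (without Fosl2F/F 2). Mki67 stood at 62.8, 100.1, 129 and 106 CPM (0.51 ± 0.23, adjusted p = 1), Plk1 at 23.2, 26.7, 38.9 and 30.9 CPM (0.46 ± 0.19) and Knl1 at 40.9, 63.2, 76.9 and 63.1 CPM (0.41 ± 0.23). At the other end were Spc25 at 48.8, 44.2, 42.7 and 43.8 CPM (-0.14 ± 0.17), Pbk at 76.5, 63.6, 68.7 and 62.6 CPM (-0.13 ± 0.18) and Ccnb2 at 115, 85.8, 95.5 and 95 CPM (-0.11 ± 0.20). An unadjusted p under 0.05 was reached by 2 members, Ccna2 and Plk1, with an adjusted p of 1.0 for each by edgeR. The shift over all cells went with the higher share of gated cells in the Fosl2cKO libraries and in Fosl2F/F 2, and its part was not tested.

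In gated theca-stromal-like cells most members lay below 0, and they were lowest in 1 library. Fosl2cKO 1 was the lowest of the 4 for 37 of the 39 members, and without it the median was 0.04. Without Fosl2cKO 2 it was -0.71. Aurkb stood at 98.5, 64.1, 44.6 and 72.1 CPM (-0.56 ± 0.30, adjusted p = 0.998), Pbk at 87.5, 55.4, 38.7 and 68.6 CPM (-0.49 ± 0.32) and Ube2c at 386, 234, 180.1 and 303 CPM (-0.45 ± 0.33). In each the Fosl2cKO 2 value lay between those of the Fosl2F/F libraries. Above 0 were Mki67 at 106, 167, 143 and 189 CPM (0.20 ± 0.27), Knl1 at 64.6, 90.6, 66.5 and 107 CPM (0.08 ± 0.28) and Hmmr at 69.6, 67.6, 57.6 and 93.3 CPM (0.06 ± 0.27). The groups overlapped for these 3 too. Over all theca-stromal-like cells 0 members were called (0.0738% of 16253 genes, 0.0554% higher and 0.0185% lower) and the median was -0.24, with 3 of 39 above 0, turning to 0.13 without Fosl2cKO 1 and reaching -0.74 without Fosl2cKO 2. Kif2c stood at 22.8, 17.7, 8.92 and 19.2 CPM (-0.61 ± 0.36), Aurkb at 28.6, 24.9, 13.5 and 26.5 CPM (-0.50 ± 0.33) and Pbk at 27.3, 22.5, 12.4 and 25.6 CPM (-0.47 ± 0.34). Highest were Mki67 at 33.7, 67.7, 49.6 and 72.8 CPM (0.21 ± 0.32), Knl1 at 19.2, 37.0, 22.6 and 39.5 CPM (0.08 ± 0.34) and Hmmr at 20.4, 26.8, 17.3 and 33.5 CPM (0.04 ± 0.32). Fosl2cKO 1 was again lowest, for 36 of the 39.

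In endothelial-like cells, libraries of one genotype stood far apart. Among gated cells Fosl2cKO 1 was the highest library for 29 of 39 members and Fosl2cKO 2 the lowest for 20, with Fosl2F/F 1 lowest for 19. Sgo1 stood at 0, 17.2, 28.5 and 16.7 CPM (0.82 ± 0.59, adjusted p = 1), Cenpa at 111, 158, 279 and 72.3 CPM (0.36 ± 0.48) and Cdc20 at 111, 95.5, 175 and 65.6 CPM (0.28 ± 0.40). Below 0 were Pbk at 39.5, 58.9, 40.4 and 37.8 CPM (-0.41 ± 0.32), Ttk at 21.5, 32.0, 22.0 and 23.4 CPM (-0.36 ± 0.35) and Cdk1 at 183, 221, 196 and 123 CPM (-0.35 ± 0.27). The groups overlapped in all 6, and the 0 UMIs of Sgo1 in Fosl2F/F 1 allow up to 10.8 CPM. Lymphatic cells, the smaller of the 2 clusters, were also spread unevenly, with 39, 159, 100 and 30 cells before the depth limit. Over all endothelial-like cells 0 members were called (0.00837% of 11953 genes), 34 of 39 lay above 0 and the median was 0.32. It was -0.50 without Fosl2cKO 1, -0.06 without Fosl2F/F 1, 0.82 without Fosl2cKO 2 and 1.23 without Fosl2F/F 2. Sgo1 stood at 1.53, 7.87, 16.2 and 6.47 CPM (1.03 ± 0.61), Cenpf at 19.1, 57.6, 108 and 23.2 CPM (0.70 ± 0.61) and Cenpa at 42.8, 75.3, 152 and 37.7 CPM (0.65 ± 0.52). Lowest were Ttk at 6.12, 14.8, 11.6 and 7.99 CPM (-0.20 ± 0.45), Pbk at 13.8, 25.9, 22.1 and 14.1 CPM (-0.19 ± 0.37) and Cdc25c at 2.29, 5.62, 4.54 and 3.80 CPM (-0.09 ± 0.55). Without Fosl2cKO 2 there were 8 of 39 members called higher, where 1.98% of 12796 genes were called in either direction, with the lone Fosl2cKO library assumed to vary like the others.

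In gated immune-like cells the spread was of the same order. Cdca2 stood at 8.10, 10.3, 16.5 and 15.6 CPM (0.75 ± 0.49, adjusted p = 0.735), Mki67 at 43.2, 123, 119.5 and 149 CPM (0.65 ± 0.44) and Knl1 at 17.6, 45.1, 43.7 and 55.7 CPM (0.65 ± 0.44). Spc24 stood at 31.1, 45.1, 20.6 and 31.3 CPM (-0.62 ± 0.38, adjusted p = 0.729), Pbk at 27.0, 22.6, 25.6 and 11.7 CPM (-0.48 ± 0.47) and Cdc20 at 72.9, 41.0, 34.6 and 56.7 CPM (-0.44 ± 0.39). Cdca2 was higher in both Fosl2cKO libraries than in both Fosl2F/F ones, on 5 to 20 UMIs per library. Over 20 alternatives its log2 fold change ran from -0.40 to 1.60, with the other sign in 1. The groups overlapped for the other 5, for Spc24 on this unscaled level alone (its TMM-scaled values were lower in both Fosl2cKO libraries). Without Fosl2F/F 2, Mki67 and Knl1 were called higher, 2 of 37 members, where 6.71% of 9543 genes were called, so the count is near the background. Over all immune-like cells 0 of 38 members were called (0.139% of 11471 genes, 0.0174% lower, Cdc25c untested), with 18 above 0 and a median of -0.04 (0.34 without Fosl2cKO 1 and -0.29 without Fosl2cKO 2). Pbk stood at 11.8, 8.99, 6.27 and 5.10 CPM (-0.91 ± 0.37, unadjusted p = 0.0358 and adjusted p = 0.709 by edgeR), lower in both Fosl2cKO libraries, on 17 to 35 UMIs per library. Spc24 stood at 12.9, 14.5, 6.63 and 11.7 CPM (-0.66 ± 0.35) and Nuf2 at 4.18, 5.08, 1.97 and 4.50 CPM (-0.63 ± 0.53). The highest were Knl1 at 6.96, 12.1, 11.5 and 21.3 CPM (0.71 ± 0.40), Kif11 at 8.35, 12.9, 9.50 and 24.6 CPM (0.60 ± 0.45) and Mki67 at 20.2, 41.8, 38.9 and 53.7 CPM (0.53 ± 0.33).

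Whether the condition effect differed between the lineage that the Cre targets and a neighbouring one was tested by the interaction of condition and lineage in gated theca-stromal-like and granulosa-like cells. It called 0 of 39 members and 0 of 16497 genes (0%), with an adjusted p of 1.0 for each member. All 39 estimates lay below 0, with a median of -0.25. The median turned to 0.13 without Fosl2cKO 1 and was -0.65 without Fosl2cKO 2. Aurkb, at -0.54 ± 0.23, was the 1 member with an unadjusted p under 0.05, and Plk1 had the largest value at -0.58 ± 0.38. Of the 50 other mitosis genes 0 were called in this test or in any of the 8 comparisons between conditions.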

How the data were processed

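Mouse ovarian cells of 4 libraries were profiled with the 10x Genomics 3′ v3 kit. The deposited values are UMI counts per gene and barcode, which the authors made with Cell Ranger on GRCm38 (mm10) (the matrix headers name version 7.1.0, the submitters' notes also Seurat 4.1.0). The study's methods removed ambient RNA with CellBender. Whether the deposited matrices, which carry a Cell Ranger header, are the corrected ones is not given in the sources used here. No columns were left unused.

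As in the study, barcodes were dropped at a haemoglobin share of 0.1% or a mitochondrial share of 10% or higher, at 1000 UMIs or fewer, or with under 500 genes. Unlike in the study, which used DoubletFinder, doublets were the top 0.8% per 1000 cells by Scrublet score and were removed. Seurat 5.3.0 (SCTransform, reciprocal PCA, 3000 features without any listed cell-cycle gene, 30 dimensions, Louvain resolution 0.8) gave 23 clusters, named from markers. Gating used cells thinned to 2000 UMIs. The tests used all UMIs of those cells, summed per library and lineage where each library had at least 20 cells (edgeR 4.0.16 quasi-likelihood, filterByExpr, TMM, Benjamini-Hochberg, with calls needing an adjusted p below 0.1 and a log2 fold change beyond 0.25 either way). CPM are per 1000000 UMIs of the cells named and are not divided by gene length, since 3′ tags count once per transcript. Values after ± of a log2 difference are approximate standard errors. Each is the size of the difference divided by the square root of the F statistic of the quasi-likelihood test. They can fall below the counting error where few UMIs were seen. Values printed as CPM outside the M- against S-gated comparison are unscaled. The scripts were tested on simulated data, which does not show that changes of the size seen here between conditions would be called. The members and lists were chosen with earlier results of these data known. Every member is accounted for by role, and library values are given for called members (up to 20 per comparison by size), the 10 with the most UMIs in gated GCs, and the 3 highest and 3 lowest of each condition comparison. Of 50 other mitosis genes, counts and up to 5 called examples per comparison are given. Intervals and floors cover counting error only. Alternatives were other gates, depth limits, clustering resolutions, doublets kept, DESeq2 1.42.0, other scaling and filters, a replicate block, and leaving out each library. The promoter window of 1 further member is not reported here.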

Additional observations from a re-analysis of the deposited data

Results flagged for a closer look

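Cells outside the 4 lineages also held the members. The oocyte-like cells numbered 29, 62, 20 and 17 and held 92075, 302901, 43743 and 179239 UMIs. Granulosa markers stood at 1510, 1463, 754 and 1155 CPM in them, and the part of such UMIs in the members was not tested. In these cells the 39 members summed to 6672 CPM (mean of 4 libraries, 5635 to 8184), above the 137 to 338 CPM of luteal-like cells. Birc5 stood at 1032, 759, 1006 and 842 CPM and Ccnb1 at 891, 578, 869 and 491 CPM in the 4 libraries. Bub1b, the checkpoint kinase BubR1, stood there at 510.5, 327, 800.1 and 151 CPM. In mural vascular-like cells the members summed to 1477 CPM (mean of 4 libraries), also above the luteal-like level. Neither cell type entered a comparison between conditions.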

How the results depend on the processing

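Between conditions no member was called under DESeq2, other scaling, no filter, other gates or depth limits, other clusterings or kept doublets. Leaving out 1 library gave 0 to 2 called members in gated immune-like cells (2, Mki67 and Knl1, without Fosl2F/F 2, with 6.71% of all genes called), 0 to 1 in all theca-stromal-like cells (Kif2c without Fosl2cKO 2, 2.12% of genes) and 0 to 8 in all endothelial-like cells (8 without Fosl2cKO 2, 1.98% of genes), the lone library of a group being assumed to vary like the others. DESeq2 called 1 to 210 genes per condition comparison, 162 higher and 48 lower in gated granulosa-like cells.

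Same-numbered libraries did not deviate together (correlations of -0.17 to 0.10), so the number served only as a name. With a replicate block 0 members were called in all 8 condition comparisons and 20 to 117 genes, against 0 to 16 without it. With the pairing crossed, an alternative chosen after seeing the data, 0 members and 0 to 191 genes were called. Lineage and phase comparisons already had library as a block.

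Against GCs, 35 members were called in theca-stromal-like cells at 2 or more gating UMIs, all lower (11228 of 17188 genes called). At 5 or more 22 were called (9517 of 15577 genes), most of them higher, and the median turned from -0.18 to 0.21. Without 1 library each 12 to 16 were called, the 12 without Fosl2cKO 1 (9736 of 16211 genes). Of the members called lower at 3 or more UMIs, the differences turned without a call at 5 or more for Kif23 (0.019), Cdca8 (0.030), Ccnb1 (0.061), Cdk1 (0.058), Kif15 (0.12), Kif11 (0.12), Top2a (0.14) and Cdc20 (0.15). In endothelial-like cells 17 to 34 members were called without 1 library each, the 34 without Fosl2cKO 1 (8169 of 15354 genes). With all 4 libraries at 3 or more UMIs, 63.2% of genes were called in the theca-stromal and 58.2% in the endothelial comparison. The shares of all genes in the other runs without 1 library are not given here. The causes of these shifts were not tested. The Fosl2cKO minus Fosl2F/F difference in gated shares ran from -10.6 to 2.04 points in theca-stromal-like cells and from -6.70 to 14.6 in endothelial-like cells without 1 library each, was -0.881 in the latter with the S-phase gating genes alone, and was -0.0148 in immune-like cells with doublets kept.

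Of the values for the members named by the rule in each comparison, 2316 kept direction and side of the threshold, 41 were no longer called, 5 were newly called and 8 turned. A gate of 5 or more UMIs was not run for endothelial-like cells (9 cells in the smallest library) or for M- against S-gated cells (16 granulosa-like and 4 theca-stromal-like), and M- or S-phase gates alone were not run for endothelial-like cells (11 and 10). Between conditions the approximate standard errors of the members reached 0.66 in gated immune-like, 0.59 in gated endothelial-like and 0.71 in all endothelial-like cells, against 0.21 in gated granulosa-like cells. Fosl2F/F 1 held 28 gated endothelial-like cells, and the part of depth in these errors was not tested.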
